A study of Mus musculus with 21 samples.

Results

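Histones are the proteins around which DNA is wound, and the testis makes more forms of them than most tissues. The genes described here are the 43 histone genes whose level averaged 0.5 TPM or more across the 21 libraries, where TPM is a transcript abundance scaled to the same total in every library. They were chosen by symbol: names that begin with Hist1h, Hist2h, Hist3h or Hist4h, with H2af or with H3f3, and the linker histones H1f0 and H1fx. The table held 89 such symbols among its 55573 entries, and 46 of them stayed under 0.5 TPM. Of the 43 genes, 5 are testis forms, 4 are linker histones (H1), 10 are replication-independent variants, 21 are canonical core histones (H2A, H2B, H3 or H4), and 3 are copies of H3f3a or a transcript antisense to it. GENCODE M21 lists 36 of them as protein-coding genes, 6 as processed pseudogenes and 1 as antisense. Classes follow the symbols, so the pseudogenes Hist1h2al and Hist3h2bb-ps count as canonical, and H3f3c and H2afy3 as variants. Chromosome 13 holds 19, chromosome 3 holds 7, chromosome 11 holds 4 and the X chromosome holds 3.

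The libraries came from whole testes of C57BL6 mice, either wild type or Mageb4 knockout, collected either unheated or 72 h after a heat shock. Mageb4 belongs to the MAGE genes and lies on the X chromosome, and the study asked what its loss does to testis RNA with and without heat. There were 6 wild-type controls and 6 knockout controls without heat, and 4 wild-type and 5 knockout libraries 72 h after heat. The labels call these biological replicates, and they do not give the age of the mice, the knockout allele, whether the knockout is in every tissue, or the temperature and length of the heat. RNA was extracted with Trizol and made into libraries with a kit that selects mRNA and keeps its strand.

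Canonical histone genes lie in clusters and are transcribed mainly while DNA is copied. Most of their transcripts end in a stem-loop in place of a poly(A) tail, so a method that selects poly(A) RNA sees only part of them, and some of these genes also make poly(A)-tailed transcripts in cells that do not divide. Variant histones such as H3.3, H2A.Z, H2A.X and macroH2A are made at other times too, usually from transcripts with poly(A) tails. In male germ cells testis forms such as H1t, TH2A and TH2B replace part of the canonical set during meiosis, and later most histones give way to transition proteins and then protamines. Whole testis mixes all of these cells, so fewer cells of a type and less RNA per cell cannot be told apart in any value below.

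The targeted gene went with the labels: Mageb4 was at 1.53 to 1.99 TPM in wild-type controls and 7.82 to 8.26 in heated wild type, against 0.01 to 0.11 in knockout controls and 0.09 to 0.15 in the heated knockout. Each library summed to the same total, and 17243 to 18547 entries per library reached 1 TPM. How many reads stand behind each TPM is unknown. The summed level of 9 round spermatid markers was 1685 to 1854 TPM in wild-type controls, 1604 to 1824 in knockout controls, 156 to 246 in wild type after heat and 589 to 900.0 in the heated knockout. For 10 pachytene spermatocyte markers the sums were 7258 to 8227, 7066 to 7849, 1565 to 2210 and 3924 to 4896 TPM, and for 10 Sertoli cell markers 1094 to 1253, 1384 to 1863, 8789 to 10970 and 3993 to 5810 TPM, in the same order of groups. The heated wild-type replicate 3 held 2126 TPM of the epididymal gene Crisp1, and the other heated wild-type libraries stayed lower for it. Wild-type control replicate 4 was the lowest of its group for 13 of the 21 canonical genes, and knockout control replicate 5 was the lowest of its own for 12.

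The stem-loop was searched as a run of 16 letters that starts with GGNNCTT, goes on with any base, T and any base, and ends with AGNNCC, in the GENCODE M21 transcripts of the GRCm38 genome (the mm10 build). It was present in 18 of the 43 genes, against 0.621% of 21901 protein-coding genes (136 genes). The lines below give 30 bases of transcript around it, 5′ to 3′, with the stem-loop in capitals, for members of both directions, chosen as examples after their values were seen. Hist1h2bp, Hist2h2aa2, Hist1h4a and Hist1h1t fell after heat, and Hist1h1c, Hist1h2bg and H2afx rose.
Hist1h2bp: acacaaaGGCTCTTTTCAGAGCCacccaca
Hist2h2aa2: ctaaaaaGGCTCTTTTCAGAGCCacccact
Hist1h4a: aaccaaaGGCCCTTCTCAGGGCCgcccaca
Hist1h1t: acccaaaGGCTCTTTTAAGAGCCacttaca
Hist1h1c: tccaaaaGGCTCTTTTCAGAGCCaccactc
Hist1h2bg: acccaaaGGCTCTTTTCAGAGCCacccata
H2afx: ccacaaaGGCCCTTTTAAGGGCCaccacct
The 16 letters of the stem-loop were the same in Hist1h2bp and Hist2h2aa2, which fell, as in Hist1h1c and Hist1h2bg, which rose. The Hist1h2bp letters stand in its model of 469 bases, and the longer model of 621 bases lacks them.

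Promoters are shown for 4 members of chromosome 13 that represent the responses described next: Hist1h2bp, the canonical gene with the largest fall on the log2(TPM + 1) scale, Hist1h1c, a linker histone that rose, and the testis forms Hist1h1t and Hist1h2aa. Each run is the 250 bases before the start site, from RefSeq on GRCm38.p6, 5′ to 3′ on the plus strand. Capitals mark CCAAT boxes, TATAAA boxes, the octamer ATTTGCAT, the cyclic AMP response core TGACGT and the GC box GGGCGG on either strand, and such letters describe the sequence without showing that a factor binds.
Hist1h2bp, chr13:21787238-21787487: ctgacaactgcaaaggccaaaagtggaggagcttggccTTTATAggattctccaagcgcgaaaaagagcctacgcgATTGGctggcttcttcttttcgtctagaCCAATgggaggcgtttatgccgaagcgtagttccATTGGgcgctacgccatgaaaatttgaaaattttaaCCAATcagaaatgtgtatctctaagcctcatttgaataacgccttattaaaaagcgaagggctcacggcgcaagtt
Hist1h1c, chr13:23738557-23738806: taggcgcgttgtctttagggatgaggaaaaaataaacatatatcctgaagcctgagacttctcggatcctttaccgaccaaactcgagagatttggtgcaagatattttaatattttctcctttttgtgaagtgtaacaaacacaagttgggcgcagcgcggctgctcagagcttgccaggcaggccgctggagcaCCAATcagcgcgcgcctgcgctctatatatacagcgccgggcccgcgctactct
Hist1h1t, chr13:23695561-23695810: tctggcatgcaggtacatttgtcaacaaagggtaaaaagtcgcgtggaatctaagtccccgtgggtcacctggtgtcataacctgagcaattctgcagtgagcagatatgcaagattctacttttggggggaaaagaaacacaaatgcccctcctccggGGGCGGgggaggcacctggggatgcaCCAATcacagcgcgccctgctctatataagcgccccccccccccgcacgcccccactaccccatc
Hist1h2aa, chr13:23934187-23934436: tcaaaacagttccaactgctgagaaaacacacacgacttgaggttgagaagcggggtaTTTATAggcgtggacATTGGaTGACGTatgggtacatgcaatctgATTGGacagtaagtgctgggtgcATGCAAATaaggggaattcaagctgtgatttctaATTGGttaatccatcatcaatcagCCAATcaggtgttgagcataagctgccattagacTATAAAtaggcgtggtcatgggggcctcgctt
RefSeq gave a promoter for 33 of the members. Within 300 bases that include the first 50 after the start site, CCAAT was present in 26 of these 33, against 37.4% of 32851 promoters. The octamer was present in 8, against 1.7%, TGACGT in 8, against 7.5%, TATAAA in 12, against 13.6%, and GGGCGG in 17, against 35.7%. The Hist1h2aa run overlaps the promoter of Hist1h2ba, which starts on the other strand and has its own 250 bases at chr13:23934157-23934406, so the pair share these letters.

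Heat moved most histone genes in wild-type testis, and more of them down than up. Of the 43, 12 rose and 26 fell 72 h after heat (limma on log2(TPM + 1), adjusted over 21450 genes, threshold 0.05). That is 88.4% of the members, beside a background of 90.4% of all genes called in this comparison, 46.4% higher and 44% lower, so the total share is near the background. The median log2 change was -0.67 over the members and 0.06 over all genes. In the knockout 11 rose and 22 fell, 76.7% of the members beside 80.6% of all genes, of which 40.3% were higher and 40.2% lower. The median there was -0.37 over the members and 0.01 over all genes. Both genotypes called 11 members higher and 20 lower, and no member was called in opposite directions. Of the 38 called in wild type, 35 had a smaller absolute log2 change in the knockout. Picking members by their wild-type call favours a larger change there. For 37 of the 43 the heated knockout mean lay between the knockout control mean and the heated wild-type mean. Groups did not overlap for 34 members in the wild-type comparison and for 26 in the knockout comparison. These counts of size, order and overlap were not made over all genes, so they are no result about histone genes. In 3 members every library of the controls (Hist1h2be) or of the heated groups (H2afb1 and Hist1h4c) lay under 0.5 TPM, so the limit itself favoured their direction. Among the 19 members at 5 TPM or more, 7 rose and 10 fell in wild type, and 7 rose and 12 fell in the knockout.

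**Figure D1:**
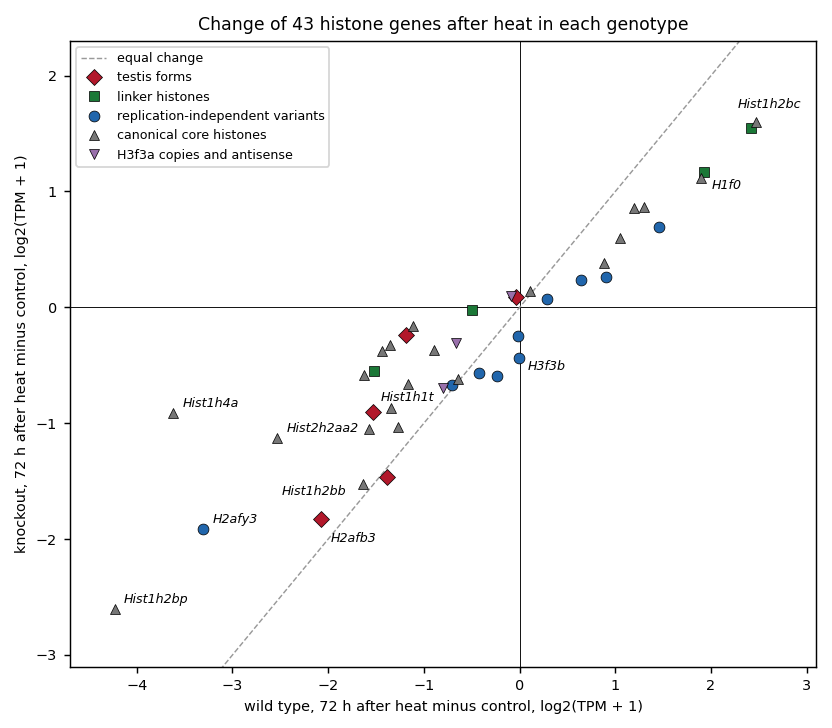
Log2(TPM + 1) change 72 h after heat in wild type (horizontal axis) against the same change in the knockout (vertical axis), 1 point per histone gene, with colours and shapes for the classes and a dashed line of equal change. Points run from -4.23 to 2.47 on the horizontal axis and from -2.61 to 1.60 on the vertical axis, and Hist1h4a stands farthest from the dashed line, at -3.62 and -0.91.

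The testis forms were low in these libraries, and all but Hist1h2ba fell after heat in wild type. Of the 5 measured, 4 fell in wild type and 3 in the knockout, with a median log2 change of -1.39 and -0.91. That is 80% and 60% called, beside 90.4% and 80.6% of all genes (44% and 40.2% lower). H2afb1, among these falls, passed the 0.5 TPM limit only through the controls, so its direction adds nothing to the count. Their summed level was 9.81 to 14.6 TPM in wild-type controls, 10.7 to 15.2 in knockout controls, 1.68 to 3.45 in wild type after heat and 2.37 to 6.25 in the heated knockout. The round spermatid and pachytene marker sums given above were also lower after heat in both genotypes. Those marker sums did not overlap between the heated groups. The testis-form sums overlapped through heated wild-type replicate 4, which held 2.10 TPM of Hist1h2ba. The other heated wild-type libraries held 0.46 to 1.05 TPM of it. Between the heated genotypes H2afb3, H2afb1 and Hist1h2ba were not called. The part of these cells in the result was not tested. A further form, H2afb2, was under 0.5 TPM.

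Hist1h1t (ENSMUSG00000036211.4, chr13:23695814-23696725, plus strand) encodes H1t, the linker histone of spermatocytes and early spermatids. It ran from 3.22 to 4.08 TPM in the wild-type controls and from 2.40 to 4.09 in the knockout controls, with medians of 3.71 and 3.20. The heated wild-type libraries held 0.67, 0.68, 0.34 and 0.75 TPM, and the heated knockout libraries 1.08, 0.97, 1.37, 1.10 and 1.57. Every heated library lay below every control, and the heated knockout lay above the heated wild type without overlap. In wild type the mean fell 5.97-fold, from 3.64 ± 0.35 to 0.61 ± 0.18 TPM (SD, n = 6 and 4), a log2 change of -1.53 ± 0.12 (SE, limma adjusted p 3.79e-11). In the knockout it fell 2.62-fold, from 3.19 ± 0.73 to 1.22 ± 0.25 TPM (n = 6 and 5), a log2 change of -0.91 ± 0.11 (limma adjusted p 1.32e-07). The difference of the heat effects was 0.63 ± 0.16 in log2, with a limma adjusted p of 0.00132. No 50-base window of its transcript occurs in another gene.

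Hist1h2aa and Hist1h2ba encode TH2A and TH2B, the testis H2A and H2B, from the shared promoter region printed above. Hist1h2aa was at 1.52 to 2.35 TPM in wild-type controls (median 1.91) and 0.65 to 2.13 in knockout controls (median 1.39). It stood at 0.44, 0.00, 0.29 and 0.37 TPM in wild type after heat and at 0.87, 0.39, 0.97, 1.19 and 1.69 in the heated knockout. Heated wild type lay below all controls, and the heated knockout overlapped its controls. The log2 change was -1.19 ± 0.17 in wild type (limma adjusted p 7.04e-07) and -0.24 ± 0.16 in the knockout (limma adjusted p 0.159), and these effects differed by 0.95 ± 0.23 (limma adjusted p 0.000753). Hist1h2ba had group means of 1.12, 1.00, 1.10 and 1.16 TPM in wild-type controls, knockout controls, heated wild type and heated knockout. Its groups overlapped throughout, and no comparison called it. The wild-type log2 change was -0.04, with a 95% interval half-width of 0.40. Of its 50-base windows, 38.2% are shared with Hist1h2bj, so the split of reads between them is uncertain.

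H2afb3 and H2afb1 on the X chromosome encode short H2A variants made in the testis. H2afb3 was at 3.06 to 5.78 TPM in wild-type controls (median 5.04) and 3.90 to 6.18 in knockout controls (median 4.60). After heat it was at 0.73, 0.46, 0.00 and 0.23 TPM in wild type and at 0.61, 0.48, 0.55, 0.42 and 1.26 in the knockout. Both heated groups lay below all controls and overlapped each other. The log2 change was -2.08 ± 0.17 in wild type (limma adjusted p 1.83e-10) and -1.83 ± 0.16 in the knockout (limma adjusted p 1.26e-09). Its mean fell 13.3-fold in wild type, and 20.5-fold without heated wild-type replicate 1. H2afb1 had means of 1.92 ± 1.22 and 2.02 ± 0.79 TPM in wild-type and knockout controls, and was listed at 0 in 3 of 4 heated wild-type libraries, with 0.15 TPM in replicate 2. In the heated knockout it was at 0.15 and 0.18 TPM in replicates 1 and 3 and listed at 0 in the other 3. It fell by 1.39 ± 0.24 and by 1.47 ± 0.22 in log2 in the 2 genotypes (limma adjusted p 1.27e-05 and 3.89e-06). Every heated library lay under 0.5 TPM, so H2afb1 passed that limit only through the controls, and the limit favoured this direction. The transcripts of the pair share 43.8% of their 50-base windows, so their separate levels are uncertain.

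**Figure D2:**
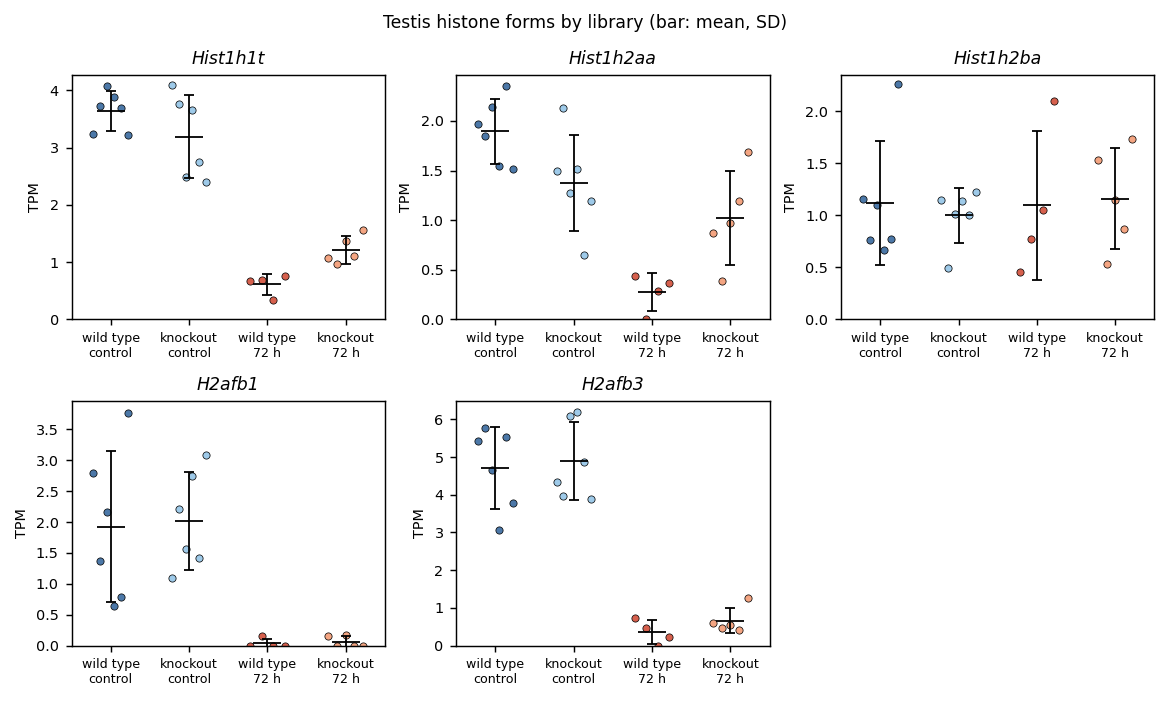
TPM of the 5 testis forms in each library (points), with the group mean and SD as bars, for wild-type controls, knockout controls and both genotypes 72 h after heat. Hist1h1t falls from a mean of 3.64 to 0.61 TPM in the wild type and from 3.19 to 1.22 in the knockout, and Hist1h2ba stays near 1.1 TPM in all 4 groups.

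Among the 21 canonical core genes, 14 fell and 6 rose in wild type, and 11 fell and 6 rose in the knockout. That is 95.2% and 81.0% called, beside 90.4% and 80.6% of all genes. Over all genes, 44% were lower and 46.4% higher in wild type, and 40.2% and 40.3% in the knockout. Hist1h4c among the falls and Hist1h2be among the rises passed the 0.5 TPM limit only through the groups where they are high. Their summed level was 194.7 to 306 TPM in wild-type controls and 204 to 287 in knockout controls. After heat it was 87.0 to 106 TPM in wild type and 113 to 135 in the knockout, so neither heated group overlapped its controls or the other. By class, 4 of 5 H2A genes, 5 of 8 H2B genes, 1 of 3 H3 genes and 4 of 5 H4 genes fell in wild type. The rises were 1 H2A, 3 H2B, 1 H3 and 1 H4 gene in each genotype. Spermatogonial markers, whose cells copy DNA, summed to 89.9 to 105 TPM in wild-type controls, 90.3 to 133 in knockout controls, 199 to 238 in wild type after heat and 163 to 201 in the heated knockout. Their part in the histone values was not tested.

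Hist1h2bp, an H2B gene (ENSMUSG00000069308.7, chr13:21787461-21789213, plus strand), had the largest fall of all 43 on the log2(TPM + 1) scale, while H2afy3 and the low genes Hist1h4k and H2afb1 fell by larger folds of mean TPM in wild type. It was at 68.5 to 95.2 TPM in wild-type controls and 82.2 to 94.8 in knockout controls, with medians of 89.3 and 87.1. Heated wild-type libraries held 7.21, 3.09, 2.7 and 2.68 TPM, and heated knockout libraries 13.7, 11.7, 12.4, 9.61 and 23.7. The groups followed each other without overlap, controls above the heated knockout and the heated knockout above heated wild type. The mean fell 22-fold in wild type, a log2 change of -4.23 ± 0.20 (limma adjusted p 1.45e-14), and 6.17-fold in the knockout, a log2 change of -2.61 ± 0.19 (limma adjusted p 5.84e-11). With Hist1h2bq it shares 34.4% of its 50-base windows.

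Hist2h2aa2, an H2A gene of the chromosome 3 cluster, and Hist1h4a, an H4 gene, fell with it. Hist2h2aa2 was at 58.9 to 122 TPM in wild-type controls and 60.2 to 114 in knockout controls, with medians of 88.4 and 83.5. It stood at 21.1, 13.1, 12.6 and 12.9 TPM in wild type after heat and at 35.6, 35.3, 46.2, 33.7 and 42.0 in the heated knockout, again with the heated knockout between the controls and heated wild type, without overlap. The log2 change was -2.54 ± 0.19 in wild type and -1.13 ± 0.18 in the knockout (limma adjusted p 3.49e-11 and 6.95e-06). All of its 50-base windows also occur in Gm20634, another annotated gene, so its own level is uncertain.

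Hist1h4a (ENSMUSG00000060093.6, chr13:23760692-23761230, minus strand) had the largest difference between the heat effects of the genotypes on the log2(TPM + 1) scale. It was at 19.0 to 27.1 TPM in wild-type controls and 13.5 to 24.0 in knockout controls, with medians of 23.8 and 21.8. Heated wild-type libraries held 1.99, 0.79, 0.34 and 1.21 TPM, and heated knockout libraries 11.7, 8.83, 10.2, 8.17 and 13.1. The mean fell 21.9-fold in wild type and 1.97-fold in the knockout. These are log2 changes of -3.62 ± 0.18 and -0.91 ± 0.17, and they differed by 2.71 ± 0.25 (limma adjusted p 9.87e-09). Hist1h4k shares 38.2% of its windows.

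Other canonical genes fell from lower levels, of which Hist1h2bb, Hist2h2be and the 7 given only by name were named after their values were seen. Hist1h2bb fell by 1.64 ± 0.17 and 1.52 ± 0.16 in log2 in wild type and knockout, and Hist2h2be, which shares no window with another gene, by 1.28 ± 0.07 and 1.03 ± 0.07 (largest limma adjusted p of the 4, 1.09e-08). Hist1h3a, the H3 gene named by the rule with Hist2h3c2, fell from a mean of 2.46 to 0.34 TPM in wild type, a log2 change of -1.35 ± 0.14 (limma adjusted p 7.35e-09). In the knockout it went from 2.19 to 1.5 TPM, a log2 change of -0.32 ± 0.13 (limma adjusted p 0.0284), and that call was lost without knockout control replicate 1 or 4 or heated knockout replicate 1 or 4 (adjusted p 0.0599 to 0.0833). Hist1h4h fell from 3.87 to 1.61 TPM in wild type and was not called in the knockout, with limma adjusted p values of 0.000289 and 0.0817. Hist1h2bb shares 40.1% of its windows with Hist1h2bk, Hist1h3a 45.2% with Hist1h3h and Hist1h4h 42.3% with Hist1h4j, so their separate levels are uncertain. Hist1h2bj, Hist2h2ac, Hist1h4k, Hist1h4c and the pseudogene Hist3h2bb-ps fell in both genotypes, and the pseudogene Hist1h2al and Hist2h2ab in wild type. Their control means lay between 0.86 and 2.97 TPM, and Hist1h4k was listed at 0 in 3 of 4 heated wild-type libraries. Hist2h3c2 was at 2.75, 2.59, 3.01 and 2.94 TPM in the 4 groups and was not called. Of its windows, 63.5% also occur in Gm20634.

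Of the canonical genes that rose, Hist1h2bc, an H2B gene, rose most on the log2(TPM + 1) scale, while the low gene Hist1h2be rose by larger folds of mean TPM. It was at 4.25 to 5.51 TPM in wild-type controls and 5.21 to 7.63 in knockout controls, with medians of 5.33 and 5.72. After heat it was at 29.8, 37.1, 32.8 and 32.2 TPM in wild type and at 19.1, 21.8, 21.02, 20.8 and 17.5 in the knockout. Every heated library was above every control, and heated wild type was above the heated knockout. The mean rose 6.45-fold in wild type and 3.36-fold in the knockout, log2 changes of 2.47 ± 0.09 and 1.60 ± 0.08 (limma adjusted p 2.34e-16 and 4.72e-13). Hist1h2bg rose from 2.46 to 11.7 TPM and from 2.93 to 7.53, and shares 45% of its windows with Hist1h2bc, which limits the separation of the pair. Hist3h2a rose from 4.50 to 9.14 TPM and from 4.38 to 6.01, and overlaps Trim17 on the same strand over 31.5% of its windows. Hist1h2be, Hist1h4i and Hist2h3c1 rose in both genotypes from control means of 0.23 to 0.92 TPM. All windows of Hist2h3c1 also occur in Gm20634, which it overlaps on the same strand, so its own level is uncertain. Hist1h2be was at 0.12 to 0.33 TPM in all controls and reached the 0.5 TPM limit only through the heated libraries, so its direction was tied to the choice of members.

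**Figure D3:**
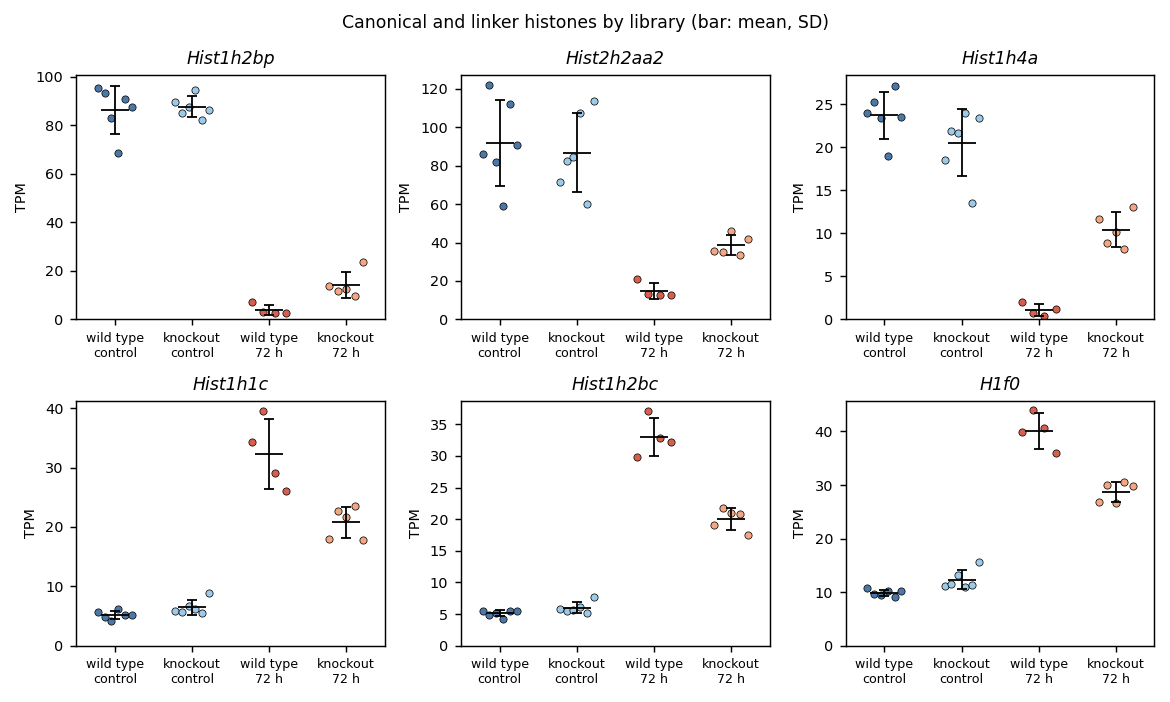
TPM per library (points) with group mean and SD (bars) for 4 canonical genes, Hist1h2bp, Hist2h2aa2, Hist1h4a and Hist1h2bc, and the linker histones Hist1h1c and H1f0. The first 3 fall after heat, to 3.92, 14.9 and 1.08 TPM on average in wild type, and the other three rise, with the heated knockout between the controls and heated wild type in all 6.

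The linker histones split. Of the 4 measured, 2 rose and 2 fell in wild type, and 2 rose and 1 fell in the knockout. That is 100% and 75% called, beside 90.4% and 80.6% of all genes. The summed level of the 4 was 27.2 to 34.2 TPM in wild-type controls, 27.8 to 46.4 in knockout controls, 68.1 to 87.8 in wild type after heat and 54.4 to 64.4 in the heated knockout. Leydig cell and macrophage markers, from cells outside the tubules, rose with H1f0 and Hist1h1c: all 8 Leydig markers and all 8 macrophage and leukocyte markers were higher after heat in both genotypes, as were all 9 tested Sertoli markers. The part of these cells in the linker values was not tested.

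H1f0 encodes H1.0, a linker histone that builds up in cells that have stopped dividing. It was at 9 to 10.7 TPM in wild-type controls and 11.0 to 15.6 in knockout controls, with medians of 9.87 and 11.4. Heated wild-type libraries held 39.8, 44.0, 40.6 and 35.9 TPM, and heated knockout libraries 26.9, 29.98, 26.6, 30.5 and 29.8. No pair of the 4 groups overlapped. The log2 change was 1.92 ± 0.08 in wild type and 1.17 ± 0.08 in the knockout (limma adjusted p 2.92e-15 and 1.52e-11), and these differed by -0.75 ± 0.11 (limma adjusted p 5e-06).

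Hist1h1c, which encodes H1.2, a replication-dependent subtype found in most somatic cells, followed the same order. It was at 4.11 to 6.24 TPM in wild-type controls (median 5.18) and 5.59 to 8.82 in knockout controls (median 6.01). After heat it was at 34.4, 39.5, 29.1 and 26.1 TPM in wild type and 18.02, 22.8, 21.7, 23.6 and 17.8 in the knockout, both above all controls and apart from each other. The mean rose 6.21-fold and 3.21-fold, log2 changes of 2.42 ± 0.13 and 1.55 ± 0.12 (limma adjusted p 6.36e-14 and 1.26e-10). H1fx, which encodes H1.10, fell from 15.5 ± 3.13 to 4.70 ± 0.89 TPM in the wild type and from 15.8 ± 3.97 to 10.3 ± 1.40 in the knockout, with limma adjusted p values of 2.81e-08 and 0.00354; its knockout groups overlapped. Hist1h1a, which encodes H1.1, fell from 0.83 to 0.30 TPM in wild type (limma adjusted p 0.000357) and had means of 0.63 and 0.60 TPM in the knockout (limma adjusted p 0.862).

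Replication-independent variants were by far the most abundant class, with 1444 to 1506 TPM in wild-type controls, 1467 to 1621 in knockout controls, 1196 to 1271 in wild type after heat and 1006 to 1179 in the heated knockout. Of the 10, 4 rose and 4 fell in wild type, and 3 rose and 6 fell in the knockout. That is 80% and 90% called, beside 90.4% and 80.6% of all genes. H3f3a and H3f3b, which encode the same H3.3 protein from separate genes, behaved differently. H3f3a was at 599 to 647 TPM in wild-type controls and 612 to 635 in knockout controls, with medians of 626 in each. After heat it was at 405, 413, 356 and 362 TPM in wild type and at 389.6, 382, 368, 384 and 444 in the knockout. Both heated groups lay below all controls and overlapped each other, and the log2 changes of -0.71 ± 0.05 and -0.67 ± 0.05 (limma adjusted p 1.5e-11 and 4.15e-11) differed by 0.04 ± 0.07 (95% interval half-width 0.14, limma adjusted p 0.622). With median-of-ratios scaling that difference was 0.15 and was called (limma adjusted p 0.0355).

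H3f3b was at 395 to 434 TPM in wild-type controls and 402 to 508 in knockout controls, with medians of 412 and 433. It was at 412, 406, 405 and 422 TPM in heated wild type, within the range of its controls, and at 311, 341, 292, 335 and 368 in the heated knockout, below all controls. The log2 change was -0.01 ± 0.06 in wild type (limma adjusted p 0.857) and -0.44 ± 0.06 in the knockout (limma adjusted p 7.66e-07). These differed by -0.43 ± 0.09 (limma adjusted p 0.000161), whereas most members called in wild type changed less in the knockout. With median-of-ratios scaling, which moves the median of all genes by -0.15 in this comparison, the wild-type change was -0.18 and was called (limma adjusted p 0.00367). The ratio of H3f3a to H3f3b was 1.45 to 1.64 in wild-type controls, 1.25 to 1.55 in knockout controls, 0.859 to 1.02 in wild type after heat and 1.12 to 1.26 in the heated knockout, a ratio within a library that scaling leaves alone.

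The H2A.Z genes moved apart. H2afz, which encodes H2A.Z.1, was at 236 to 262 TPM in wild-type controls and 245 to 272 in knockout controls, with medians of 257 and 268. It was at 204, 226, 203 and 228 TPM in wild type after heat and at 170.4, 184, 163, 173 and 181 in the heated knockout, each below its controls. The log2 change was -0.24 ± 0.05 and -0.59 ± 0.05 (limma adjusted p 8.89e-05 and 1.25e-10), larger in the knockout by 0.35 in size (difference -0.35 ± 0.07, limma adjusted p 6.41e-05). H2afv, which encodes H2A.Z.2, was at 29.0 to 36.3 TPM in wild-type controls (median 34.4) and 32.7 to 46.7 in knockout controls (median 37.1). It rose to 93.1, 89.8, 93.6 and 98.4 TPM in wild type after heat and to 54.5, 66.8, 63.0, 64.9 and 60.2 in the heated knockout, log2 changes of 1.45 ± 0.08 and 0.69 ± 0.08 (limma adjusted p 3.68e-13 and 6.29e-08). The ratio of H2afz to H2afv went from 6.51 to 8.85 in wild-type controls and 5.76 to 8.29 in knockout controls to 2.17 to 2.52 and 2.59 to 3.13 in the heated groups.

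H2afx encodes H2A.X, which is phosphorylated at DNA breaks and on the silenced sex chromosomes of meiosis. Its means were 28.7 ± 2.04 and 31.7 ± 4.03 TPM in the controls and 45.3 ± 5.13 and 37.5 ± 4.37 after heat. It rose in wild type (log2 0.64 ± 0.10, limma adjusted p 2.38e-06) and in the knockout (0.24 ± 0.09, limma adjusted p 0.0204), but the knockout call was lost without knockout control replicate 5 or heated knockout replicate 2 or 4 (adjusted p 0.0567 to 0.0606). Median-of-ratios scaling also lost the knockout call of H2afx (limma adjusted p 0.0591). H2afj, which encodes H2A.J, rose from 2.62 to 5.75 TPM in wild type (limma adjusted p 5.92e-07) and from 3.09 to 3.82 in the knockout, where the limma adjusted p of 0.0448 became 0.0523 to 0.118 in 8 fits that each left out 1 knockout library (control replicates 1, 2, 4 and 5 and heated replicates 1 to 4). Nor was H2afj called in the knockout with that scaling (limma adjusted p 0.0862), without a filter (0.0759) or with the 2 groups fitted alone (0.0867).

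The macroH2A genes encode H2A with a large added domain. H2afy, macroH2A1, had means of 73.6 ± 3.64 and 77.2 ± 5.16 TPM in the controls, 72.7 ± 1.59 in wild type after heat and 64.8 ± 2.45 in the heated knockout. It fell in the knockout (log2 -0.25 ± 0.05, limma adjusted p 8.55e-05) and was not called in wild type (limma adjusted p 0.755), where median-of-ratios scaling gave -0.19 (limma adjusted p 0.00132). That scaling also took the difference of the heat effects of H2afy from -0.23 to -0.12 (limma adjusted p 0.00591 and 0.105). H2afy2, macroH2A2, rose from 2.79 to 3.62 TPM in wild type (limma adjusted p 0.0214), and lost that call without wild-type control replicate 6 or heated wild-type replicate 1 or 2 (adjusted p 0.0509 to 0.0867). With median-of-ratios scaling its change went from 0.29 to 0.16 and was not called (limma adjusted p 0.173), nor was it with the 2 groups fitted alone (0.0778) or with a replicate block (0.0767).

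H2afy3, a processed pseudogene on chromosome 15 in GENCODE M21 that shares 13.4% of its windows with H2afy2, went the opposite way. It was at 12.9 to 14.4 TPM in wild-type controls and 13.5 to 15.3 in knockout controls, with medians of 13.9 and 14.7. Heated wild-type libraries held 0.92, 0.13, 0.36 and 0.72 TPM, and heated knockout libraries 4.20, 2.47, 2.94, 2.19 and 4.22. The groups did not overlap after heat or with their controls, and the log2 changes were -3.31 ± 0.14 and -1.91 ± 0.13 (limma adjusted p 1.36e-15 and 1.48e-11). It lies within Pvt1 on the opposite strand.

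Copies of H3f3a cannot be told well from their parent. H3f3c fell in both genotypes, from 17.9 to 13.1 TPM and from 19.0 to 12.5, and H3f3a-ps2 fell from 55.1 to 31.3 and from 54.9 to 33.4. Of their windows, 73.8% and 82% occur in other genes, H3f3a first among them, and the ratio of H3f3a to H3f3a-ps2 stayed at 10.1 to 13.1 in all 21 libraries. H3f3a-ps1 fell in wild type from 1.53 to 0.55 TPM and was not called in the knockout. H3f3aos, on the strand opposite H3f3a, was at 2.71, 2.53, 2.48 and 2.75 TPM in the 4 groups and was not called.

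**Figure D4:**
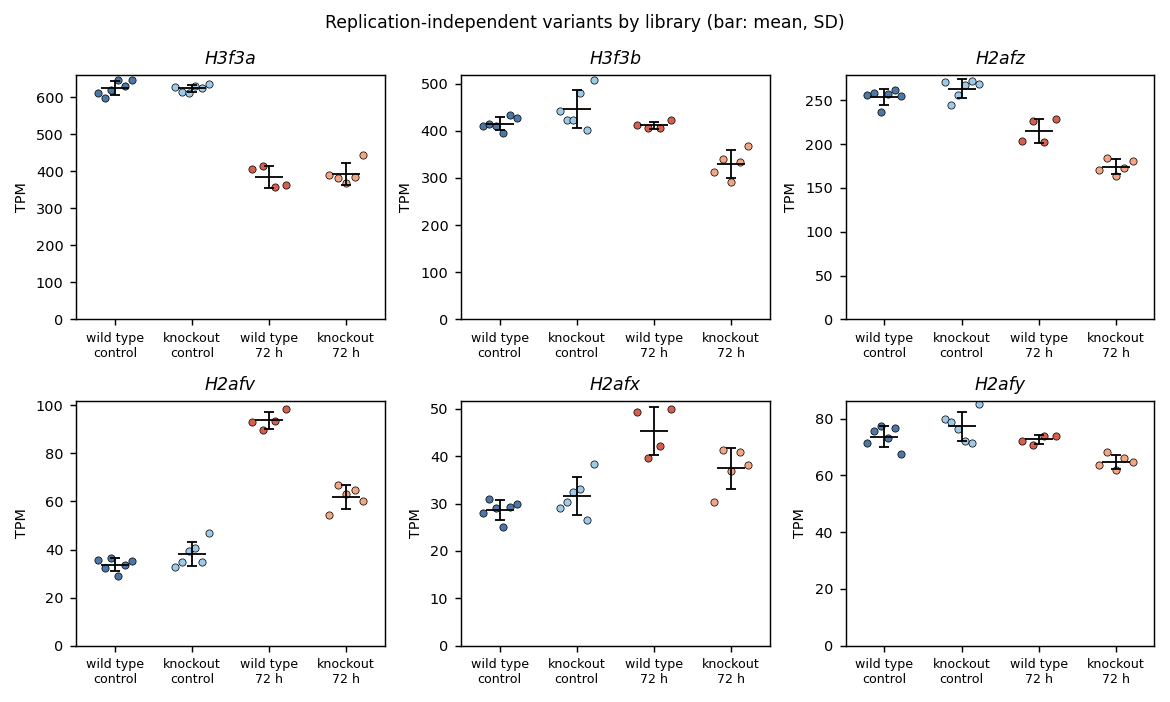
TPM per library (points) with group mean and SD (bars) for 6 replication-independent variants. H3f3a is below its controls in both heated groups, H3f3b is below them only in the heated knockout, and H2afv stands at 93.7 TPM on average in wild type after heat and 61.9 in the heated knockout, above all controls.

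Without heat, no histone gene was called between the genotypes by limma, beside 0.946% of all genes (0.876% higher and 0.0699% lower in the knockout). At an unadjusted p under 0.05 there were 6 members, 4 higher in the knockout (H1f0, Hist1h1c, Hist1h2bc and H2afv) and 2 lower (Hist2h2ab and Hist1h4k). H1f0 came nearest, with a log2 difference of 0.29 ± 0.07 (limma adjusted p 0.0572) and every knockout control above every wild-type control. It passed the threshold with a pseudocount of 0.1 TPM or with these 2 groups fitted alone. For Hist1h1t the difference was -0.16 ± 0.10, and for Hist1h2bp 0.03 ± 0.18, with 95% half-widths of 0.20 and 0.35. In this comparison 3 Sertoli, 2 Leydig and 1 macrophage marker were higher in the knockout, and no spermatid or spermatocyte marker was called.

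After heat, 17 members were higher and 13 lower in the knockout than in wild type, 69.8% of the members beside 80.4% of all genes (33.2% higher and 47.2% lower). The higher ones were 11 canonical genes, the testis forms Hist1h1t and Hist1h2aa, the linkers H1fx and Hist1h1a, H2afy3 and H3f3a-ps1. Hist1h4a was 9.61-fold higher in the mean, Hist1h2bp 3.63-fold, Hist2h2aa2 2.58-fold and H2afy3 6.02-fold (limma adjusted p 2.68e-10, 3.85e-07, 3.33e-06 and 9.21e-09). The lower ones were 5 canonical genes, led by Hist1h2bc at -0.69 ± 0.09 in log2, the linkers Hist1h1c and H1f0, and 6 variants, among them H2afv at -0.59 ± 0.09 and H3f3b at -0.32 ± 0.07. Some of these calls were lost when 1 heated library was left out. That held for Hist1h1a without wild-type replicate 2 or 3 or knockout replicate 2 or 5 (limma adjusted p 0.0673 to 0.0862) and for H2afx without wild-type replicate 1 or 4 or knockout replicate 1 (0.0636 to 0.0694). It also held for Hist1h4h without wild-type replicate 3 or 4 or knockout replicate 1, 2 or 3 (0.0598 to 0.161) and for Hist1h4i without wild-type or knockout replicate 1, 2 or 3 (0.0711 to 0.138). H3f3a-ps1 lost its call without wild-type replicate 2 or 3 or knockout replicate 1 or 4 (0.0675 to 0.0898), and Hist1h2al without wild-type replicate 4 (0.0585). With median-of-ratios scaling H2afx, H2afy and Hist1h4i were not called here (limma adjusted p 0.0778, 0.156 and 0.11), H3f3a was called higher (0.0266), and 18 members were higher and 10 lower.

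The difference of the heat effects was called for 28 members, 15 higher and 13 lower, or 65.1% beside 77% of all genes (31.6% higher and 45.4% lower). This contrast shares its heated libraries with the comparison above, so its values are the same data seen against each genotype's controls. All 15 with a positive difference had fallen in wild type and fell less, or were not called, in the knockout. Of the 13 with a negative difference, 10 had risen in wild type and rose less in the knockout, and the others were H3f3b, H2afz and H2afy. Over the members the median difference was 0.12, and over all genes -0.20. The call for Hist2h2be was lost without heated wild-type replicate 3 or heated knockout replicate 1 (limma adjusted p 0.0523 and 0.055). That for Hist1h2bj was lost in 17 of the 21 fits that left out 1 library (0.0507 to 0.0852).

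The place of the stem-loop within the transcript model went with the direction of change. In 10 of the 18 genes with the letters, at most 300 bases follow the stem-loop: 38 in Hist1h2bp, 35 in Hist2h2aa2, 108 in Hist1h4a and 185 in Hist1h1t. Of these 10, 9 fell in wild type and 8 in the knockout, and 1, Hist1h2bg with 155 bases, rose in both. Over all genes, 44% were lower in wild type and 40.2% in the knockout. In the other 8 the models run on past the stem-loop, for 840 bases in Hist1h1c, 822 in H2afx, 1643 in Hist3h2a and 1861 in Hist1h2be. Of these 8, 6 rose in both genotypes, Hist1h4c fell in both and Hist2h3c2 was not called. Over all genes, 46.4% were higher in wild type and 40.3% in the knockout. The knockout call of H2afx, among the rises, was lost in some of the fits given above. All windows of Hist2h2aa2, one of the falls, and of Hist2h3c1, one of the rises, also occur in Gm20634. So do 63.5% of those of Hist2h3c2, and the own levels of these genes are uncertain. Hist3h2a overlaps Trim17 on the same strand and shares 31.5% of its windows with it. Hist1h2be overlaps Hist1h1e on the same strand and shares 10.1% of its windows with it. Hist1h2be among the rises and Hist1h4c passed the 0.5 TPM limit only through the groups where they are high, so their directions add nothing to this pattern. The genes nearest to 300 bases were Hist1h1t with 185 on one side, which fell, and Hist1h4i with 330 on the other, which rose. The summed level of the short-tailed 10 was 161 to 269 TPM in wild-type controls, 172 to 253 in knockout controls, 29.8 to 48.5 in wild type after heat and 68.1 to 92.9 in the heated knockout. For the 8 with longer models it was 41.2 to 47.0, 41.2 to 57.1, 92.8 to 105 and 63.5 to 79.8 TPM. Hist2h2aa2 and Hist1h2bp made up most of the short-tailed sum in the controls. In wild-type controls their means were 91.9 and 86.4 TPM, beside a mean sum of 225. The 300-base limit was set after these values were seen, so no test is given, and the models are those of the annotation, which may not be the RNA present.

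**Figure D5:**
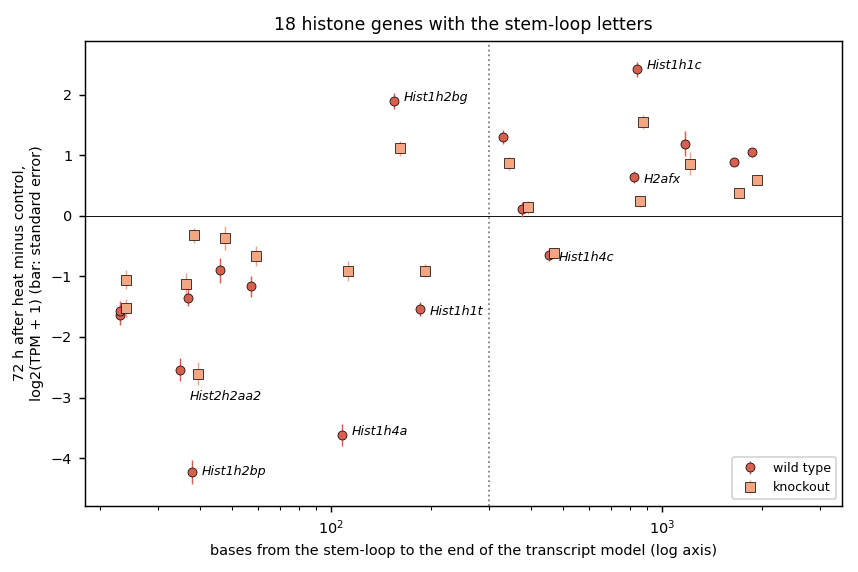
Bases between the stem-loop and the end of the transcript model (horizontal log axis) against the log2(TPM + 1) change 72 h after heat (vertical axis), for the 18 genes with the stem-loop letters, in wild type (circles) and the knockout (squares, drawn slightly to the right), with bars of 1 standard error. Left of the dotted line at 300 bases Hist1h2bg alone is above 0, and right of it Hist1h4c alone is below 0.

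Testis histones with other symbols were followed as a list outside the rule, and their tie to spermatid stages was not tested. Over all genes, 46.4% were higher and 44% lower after heat in wild type, and 40.3% and 40.2% in the knockout. These shares stand beside the heat counts of this list and of those below. Of 7 tested, 6 fell and 1, H2bfm, rose in wild type, whereas in the knockout 4 rose, none fell and 3 were not called. Mean H2bfm was 1.68 TPM in wild-type controls and 18.7 in heated wild type, an 11.1-fold rise (limma adjusted p 7.37e-16). Knockout means of H2bfm were 1.70 TPM without heat and 10.7 after it, a 6.3-fold rise (limma adjusted p 2.57e-13). Hils1, a linker-like histone of elongating spermatids, went from 1408 ± 78.1 to 91.8 ± 67.9 TPM in wild type, a 15.3-fold fall, and had means of 1402 ± 70.6 and 1236 ± 153 TPM in the knockout, a change that was not called. H2al3 fell 10.8-fold in wild type, from 163 to 15.1 TPM, and rose in the knockout from 155 to 222. H2al2a, which encodes H2A.L.2, a variant that loads as protamines come in, fell from 586 to 459 TPM in wild type and rose from 566 to 1011 in the knockout. Hist1h1t, by comparison, fell in both genotypes.

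The factors that make, carry and remove histones moved in mixed directions. Among 14 genes for synthesis and 3′ processing of histone transcripts, 8 rose and 5 fell in wild type, and 3 rose and 7 fell in the knockout. Slbp, which encodes the protein that binds the stem-loop, fell from 91.6 ± 3.25 to 68.0 ± 1.46 TPM in the wild type and from 93.3 ± 3.1 to 61.7 ± 7.54 in the knockout. Sympk and Cstf2, of the cleavage machinery, fell in wild type from 130.1 to 48.6 and from 58.0 to 23.7 TPM. In the knockout Cstf2 fell from 54.9 to 32.9 TPM, and Sympk, with means of 133 and 118, was not called. Cpsf3, of the same list, rose from 27.6 to 48.5 TPM in the wild type and from 28.2 to 32.7 in the knockout. Among 19 chaperone and exchange genes, 9 rose and 6 fell in wild type and 4 rose and 11 fell in the knockout. Nasp, a chaperone of H1 and H3 with H4, fell from 659 to 85.8 TPM in the wild type and from 635 to 129 in the knockout. Chaf1a, a subunit of the CAF-1 complex that loads histones on new DNA, fell from 73.7 to 10.4 and from 71.7 to 33.9 TPM. Anp32e, a chaperone that removes H2A.Z, rose from 12.5 to 61.5 TPM and from 15.7 to 35.4.

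Of 14 genes for histone removal in spermatids, 11 fell and 3 rose in wild type, and 5 fell and 7 rose in the knockout. Cdyl and Kat5 fell in wild type, from 143 to 27.2 and from 79.7 to 30.9 TPM. In the knockout Kat5 fell from 75.8 to 32.1 TPM, and Cdyl, with means of 142 and 128, was not called. Tnp2, which encodes a transition protein, had means of 7701 and 7570 TPM in wild-type and knockout controls, 1741 in wild type after heat and 10890 in the knockout after heat. Of 18 DNA replication genes, 7 rose and 7 fell in wild type, and 6 rose and 10 fell in the knockout. Mcm7, of the replicative helicase, fell from 119 to 45.3 TPM in the wild type and from 117 to 54.2 in the knockout, and Pola1, of the primase complex, rose from 0.66 to 4.4 and from 0.84 to 2.01. Any tie between these replication genes and the canonical histone genes was not tested. None of the genes in these 4 lists was called between unheated genotypes.

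For the other marker lists, 5 of 7 spermatogonial genes rose and 1 fell in each genotype, and 9 of 10 pachytene genes fell and 1 rose in each. All 9 round spermatid genes fell in wild type and 8 in the knockout. Of 9 elongating spermatid genes, 4 rose and 3 fell in wild type, and all 9 rose in the knockout. Of 4 tested epididymal genes, 1 rose and 1 fell in wild type and 1 rose in the knockout.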

How the data were processed

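RNA sequencing of 21 libraries of whole mouse testis (6, 6, 4 and 5 per group) was deposited as 1 table of TPM, computed by the authors. The submitters' processing notes name STAR and mm10; the sources used here do not give the abundance tool, annotation or aligner version. TPM keeps no depth, so precision was judged from the spread between libraries. On the log2(TPM + 1) scale, the 21450 genes that averaged 0.5 TPM or more entered 1 limma model of group means (limma 3.58.1, R 4.3.3), moderated with a trend on mean level. Benjamini-Hochberg adjustment ran over these genes within each of 5 comparisons, with calls under 0.05. Errors with TPM are SD, errors with log2 changes are moderated standard errors, and folds are ratios of mean TPM. A change in log2(TPM + 1) understates that of low genes. In simulated data 200 of 21450 genes were changed in heated wild type. Changes of 0.5 and 1 in log2 were recovered at 87% and 100%, with 15 false calls. Far more genes were called in the real comparison, so that setting differs from these data. Coordinates and transcripts came from GENCODE M21 on GRCm38, and promoters from RefSeq on GRCm38.p6. A window counts as shared where the same 50 bases occur in a transcript of another gene.

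Genes named with values were the testis, linker and variant members, the 2 most abundant of each canonical class, the 3 largest rises and falls per comparison, and, outside the rule, the 2 genes with the largest moderated t per list and comparison. Other members were named after their values were seen, to account for every gene. The members and lists were chosen with earlier results of these data known. Alternatives were another pseudocount, other filters, median-of-ratios scaling, fits of 2 groups alone, a replicate block and leaving out each library.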

Additional observations from a re-analysis of the deposited data

Results flagged for a closer look

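A single library stood apart from the others of its group for 12 of 112 combinations of a named gene and a group, and chance flags about 1 in 20. Heated knockout replicate 5 was high for H3f3a (443.53 TPM, the others 367.66 to 389.56), H2afb3 (1.26 TPM, the others 0.42 to 0.61) and Hist1h2bp (23.67 TPM, the others 9.61 to 13.66). Heated wild-type replicate 1 was high for Hist2h2aa2 (21.1 TPM, the others 12.6 to 13.14) and Hist1h2bp (7.21 TPM, the others 2.68 to 3.09), and replicate 2 held 0.15 TPM of H2afb1, which was listed at 0 in the others. Knockout control replicate 6 was high for Hist1h1c (8.82 TPM) and Hist1h2bc (7.63 TPM), replicate 5 was low for Hist2h3c2 (1.81 TPM) and replicate 2 low for Hist1h2ba (0.49 TPM). Wild-type control replicate 3 was low for H2afz (236.32 TPM) and replicate 6 high for Hist1h2ba (2.26 TPM).

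The effect of heat differed between the genotypes, by limma's test of the difference itself, for 20 of the 28 named members. The background is 77% of all genes called in this contrast, so the share is no result about histone genes. Differences are knockout minus wild type in log2(TPM + 1). Positive ones, where the fall was smaller in the knockout, were 2.71 for Hist1h4a, 1.63 for Hist1h2bp, 1.41 for Hist2h2aa2, 1.39 for H2afy3, 1.03 for Hist1h3a, 0.97 for H1fx, 0.95 for Hist1h2aa, 0.63 for Hist1h1t and 0.47 for Hist1h1a. Negative ones, where the rise was smaller, were -0.88 for Hist1h2bc, -0.87 for Hist1h1c, -0.78 for Hist1h2bg, -0.76 for H2afv, -0.75 for H1f0, -0.64 for H2afj, -0.50 for Hist3h2a and -0.40 for H2afx. Against that order, the fall was larger in the knockout for H2afz (-0.35), and H3f3b (-0.43) and H2afy (-0.23) were called lower after heat in the knockout alone.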

How the results depend on the processing

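No result changed direction among called values under any alternative run, and every count of members stayed within 1.5 times but 1: without heat the members higher in the knockout went from 0 to 1, H1f0, with a pseudocount of 0.1 TPM and with the 2 groups fitted alone. Median-of-ratios scaling gave 11 higher and 28 lower in wild type and 9 and 23 in the knockout, and after heat 18 higher and 10 lower in the knockout than in wild type. H3f3a was then also called between the heated genotypes (0.12), and H2afb3 with a pseudocount of 0.1 TPM (1.03). With the replicate block the counts were 11 and 26 after heat in wild type, 11 and 23 in the knockout, 0 and 0 without heat, 17 and 12 between heated genotypes and 16 and 13 for the difference. The labels' numbers did not pair the libraries: of 28 same-numbered pairs, 4 had a correlation of deviations over 0.1 (range -0.198 to 0.281). Leaving out 1 library gave 11 to 12 higher and 26 lower in wild type, 9 to 11 and 21 to 24 in the knockout, 0 and 0 without heat, 14 to 18 and 11 to 13 between heated genotypes, and 13 to 17 and 13 to 14 for the difference. Without heated wild-type replicate 1 the wild-type fall of Hist1h2al went from 7.61-fold to 12.2-fold, of Hist2h2ac from 6.51-fold to 10.8-fold and of Hist2h2ab from 10.4-fold to 20.1-fold, and the heated wild-type means of Hist1h4k and H2afb1 rest on replicates 3 and 2 alone. Depth limits what can be said of members near 1 TPM, and a pseudocount of 1 TPM shrinks their changes.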
